A study of Mus musculus with 63 samples.

Results

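The hnRNP, SR and SF3 splicing factor genes were measured here in cultured mouse keratinocytes with or without the EGF receptor. The set holds every probe whose gene symbol in the array's annotation starts with Hnrnp, Srsf, Sfrs or Sf3. These are 46 of the 28049 probes, for 24 of the 14541 genes with a symbol: 31 probes of 13 hnRNP genes, 9 probes of 6 SR genes (*Srsf2*, *Srsf3*, *Srsf5*, *Srsf10*, *Srsf11* and *Srsf12*) and 6 probes of 5 SF3 genes (*Sf3a1*, *Sf3a2*, *Sf3a3*, *Sf3b5* and *Sf3b6*). All cells were keratinocytes from the skin of newborn CD-1 mice, labelled EGFR wild type (WT) or EGFR knock-out (KO). They were mock cells, for which the labels give no treatment, or were transduced with v-rasHa, a viral Ha-ras oncogene, and kept for 4 days. Some groups then received AG1478, erlotinib or PD153035, which inhibit the EGFR kinase. Each was used at 1 µM for 2 h. The inhibitors were given to WT mock, WT ras and KO ras cells, so KO mock cells have no inhibitor group. The 63 arrays form 13 groups of 5 samples each, except WT mock and KO ras with erlotinib with 4, KO mock with 3 and KO ras with AG1478 with 6.

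Splicing removes introns from pre-mRNA on the spliceosome, a machine of small nuclear ribonucleoproteins. SR proteins bind exons and mostly promote their inclusion, hnRNP proteins coat pre-mRNA and often repress exons, and SF3A and SF3B are protein complexes of the U2 particle that hold the branch point. Several of these genes are known to limit their own mRNA through alternative exons that lead to decay, and hnRNP and SR genes are known to be expressed broadly, in keratinocytes as in most dividing cells.

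On each array a sample was hybridised with universal reference RNA, a pool from mouse cell lines of many tissues. Every value below is a ratio of sample over reference, taken to be on the log2 scale. The log base is an assumption, and such a ratio says nothing of how abundant a gene is beside another gene. Arrays held 24860 to 28047 values, and on all 63 arrays the median of a keratinocyte marker list exceeded that of a list of reference pool genes, by 1.95 to 7.20. The targeted gene, *Egfr*, was read by 2 probes whose place in the transcript is not given, so they do not check the genotype. They gave KO minus WT differences of −0.60 ± 0.49 and −1.15 ± 0.58 (SE) in mock cells, and 0.34 ± 0.40 and −0.63 ± 0.48 in ras cells, with limma's adjusted p from 0.291 to 0.716. Experiment numbers in the array titles fall into 8 runs, series of numbers parted by gaps of more than 100, and the labels do not say what a run is. Runs 1 and 2 hold all WT mock groups and WT ras, run 4 holds KO mock, and run 3 holds 3 of the 5 KO ras samples. The erlotinib groups of ras cells and the remaining KO ras samples lie in runs 5 and 6, run 7 holds 3 of 5 samples of WT ras with AG1478, and run 8 holds the rest. WT and KO without inhibitor share no run, and neither do untreated WT ras and its inhibitor groups, so run cannot be told apart from genotype or inhibitor there. In 2 arrays of KO ras with AG1478 (repeats 3 and 4) the dye order in the labels and the sign of the values disagreed, and the values were followed.

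Across the 13 groups, 19 of the 46 probes, of 10 genes, differed among groups in limma's F test, beside 24.9% of all probes. With run as a random block none of the 46 was called. The leading probes, named by gene and array identifier, were those of *Hnrnpa2b1* (1790802, adjusted p = 3.74e-05), *Hnrnpa3* (1787714, adjusted p = 0.000159) and *Hnrnpk* (1782169, adjusted p = 0.000163), followed by *Srsf5* (1797817, adjusted p = 0.000501) and *Hnrnph1* (1784753, adjusted p = 0.000509). The group means of a probe spanned 1.26 in the median over the 46 probes, with 1.41 for hnRNP, 1.26 for SR and 1.02 for SF3 probes. WT ras with AG1478 held the lowest group mean for 13 probes and KO mock for 12. The heatmap of group means shows these low blocks.

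**Figure D1:**
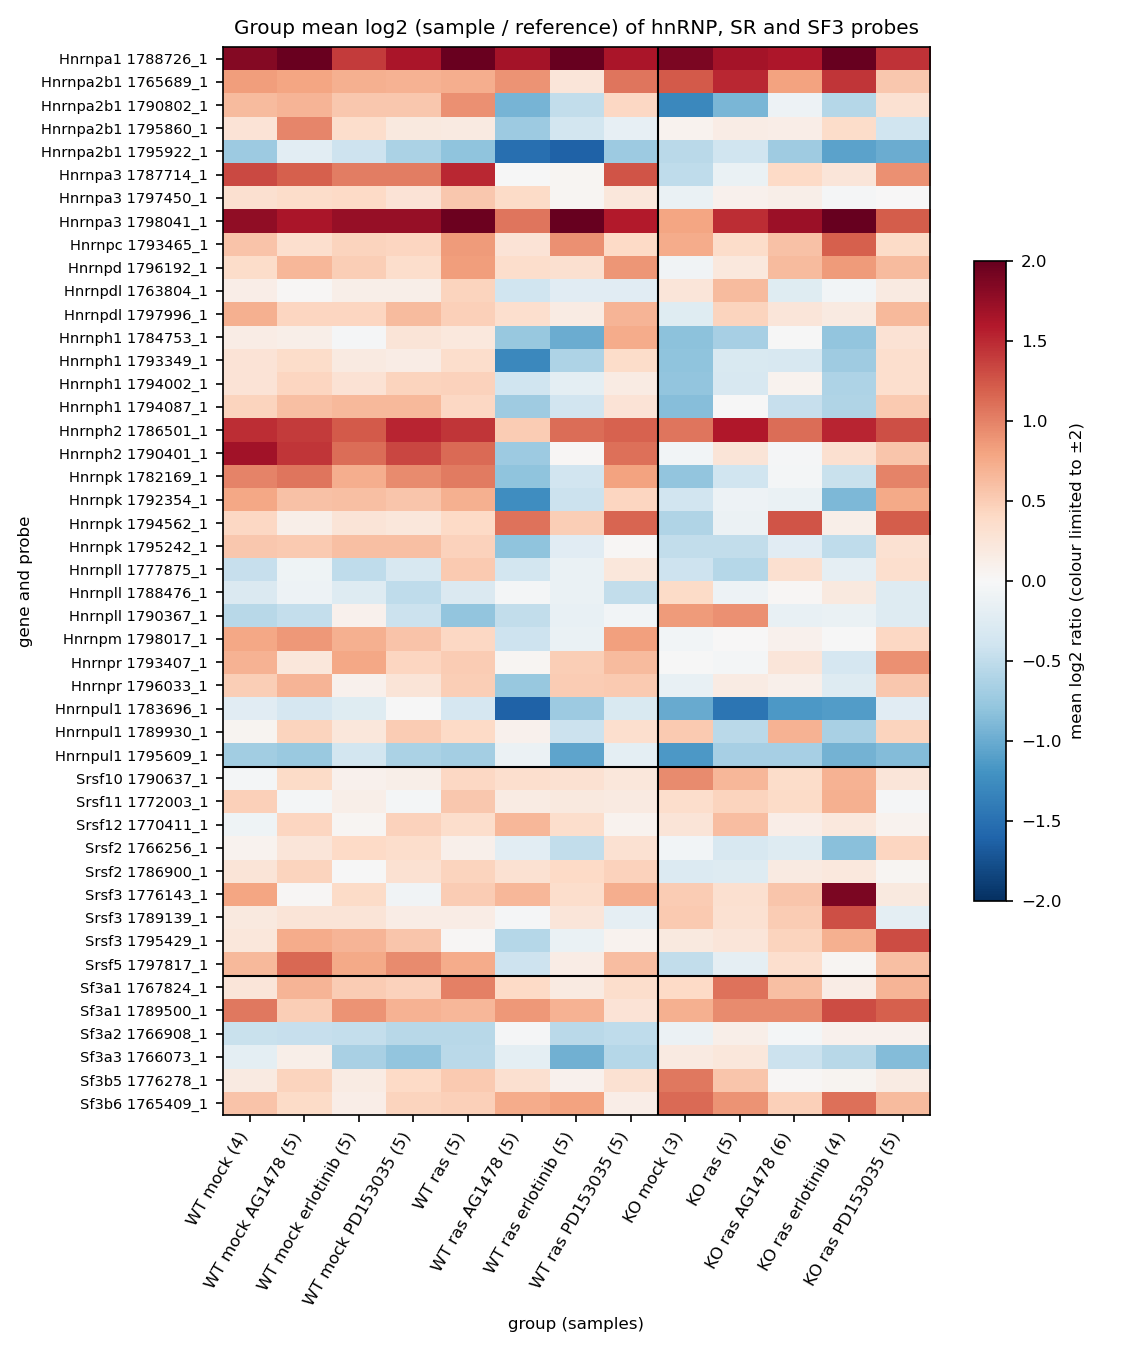
Mean log2 ratio of sample over reference for the 46 splicing factor probes (rows, by gene and probe) in the 13 groups (columns), with colour limited to ±2. The low block of hnRNP rows lies in KO mock, KO ras, WT ras with AG1478 and the erlotinib groups of ras cells, and the *Hnrnpa1* row is high in every group (means from 1.40 to 2.53).

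Members were called (adjusted p under 0.05, adjusted over all probes of a comparison) in 6 of 17 comparisons, in 20 calls on 11 probes of 8 genes, of which 15 were lower and 5 higher. The other 16 genes were called in none. In KO against WT cells, 1 of 4 *Hnrnpa2b1* probes and 1 of 3 *Hnrnpa3* probes were lower in mock and ras cells, and 1 of 3 *Hnrnpll* probes was higher in ras cells. Averaged over its probes, *Hnrnpa3* was also called lower in both and *Hnrnpa2b1* in neither. Probes of *Hnrnpa2b1*, *Hnrnpa3*, *Hnrnph1* and *Hnrnpk* were lower in WT ras cells given AG1478 or erlotinib, as was *Srsf5* with AG1478. With PD153035, 1 probe each of *Hnrnpa2b1*, *Hnrnpk* and *Hnrnpul1* was higher in KO ras cells than without it, and 1 of 2 *Sf3a1* probes was higher in KO than in WT ras cells. These comparisons share samples (WT ras serves as the baseline of 3 inhibitors and of KO ras), so their values are not independent of each other. With 1 sample left out at a time, 4 of the 20 calls passed in every omission: *Hnrnpa2b1* in KO minus WT in ras cells and, with AG1478 in WT ras cells, *Hnrnpa2b1*, *Hnrnpk* 1792354 and *Hnrnph1* 1793349. Each of the other 16 was lost in 2 or more omissions, and none changed direction.

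**Figure D2:**
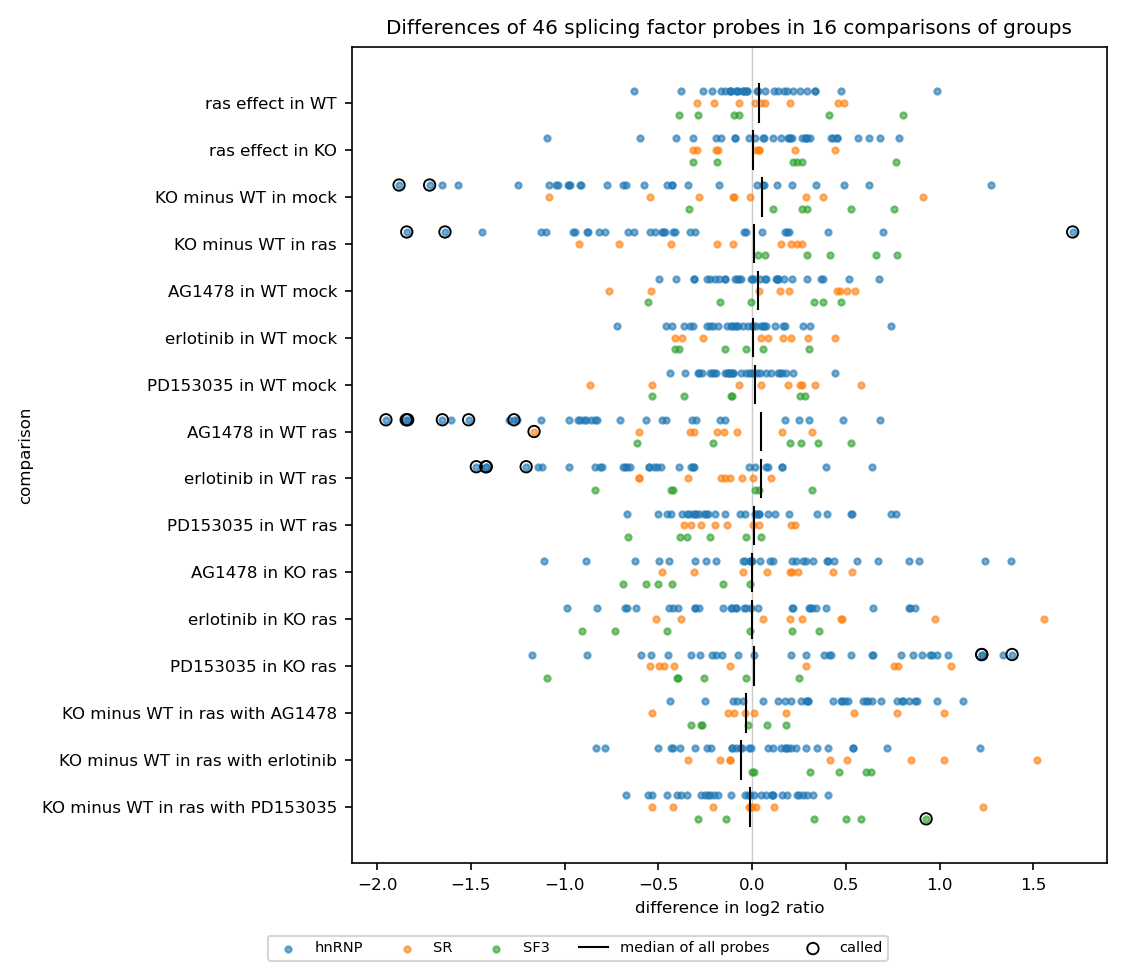
Log2 difference of each of the 46 probes (dots, coloured by family) in 16 comparisons of 2 groups, with the median of all probes as a black tick and the called differences circled. Circles lie to the left in KO minus WT in mock and in AG1478 and erlotinib in WT ras, where the lowest reaches −1.95, and to the right with PD153035 in KO ras and in KO minus WT under PD153035. In KO minus WT in ras they lie to the left except that of *Hnrnpll* at 1.71.

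The promoters of 4 called genes are shown, each holding a motif found at unlike rates in the hnRNP and SF3 genes below. That difference was not tested. RefSeq promoters (GRCm38.p6, the 250 bases before each gene's start) matched 22 of the 24 genes in 29 promoters, and *Hnrnpll* and *Sf3b5* had none in the table. The motif CCAAT, on either strand, was in 51.7% of these promoters and in 33.8% of all 32851 promoters in the table. It was found for 9 of 12 hnRNP genes, 3 of 6 SR genes and 0 of 4 SF3 genes. The motif CCGGAAG, of the kind that ETS factors bind, was in 27.6% against 6.91%, for 1 of 12 hnRNP, 2 of 6 SR and 4 of 4 SF3 genes. *Hnrnpk* (chr13:58402118-58402367, minus strand) holds CCAAT 95 and 54 bases before its start, and *Hnrnpa3* (chr2:75659009-75659258, plus strand) 228 and 123 bases before it. *Srsf5* (chr12:80945249-80945498, plus strand) holds CCGGAAG 90 and 23 bases before its start, and *Sf3a1* (chr11:4160104-4160353, plus strand) 7 bases before it. Capitals mark CCAAT or its reverse complement ATTGG in the first pair, and CCGGAAG or CTTCCGG in the second.
Hnrnpk: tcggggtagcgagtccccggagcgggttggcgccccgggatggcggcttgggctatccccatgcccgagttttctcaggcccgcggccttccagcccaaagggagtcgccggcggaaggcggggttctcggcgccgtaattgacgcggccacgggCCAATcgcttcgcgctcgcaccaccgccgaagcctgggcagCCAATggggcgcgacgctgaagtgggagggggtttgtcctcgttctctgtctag
Hnrnpa3: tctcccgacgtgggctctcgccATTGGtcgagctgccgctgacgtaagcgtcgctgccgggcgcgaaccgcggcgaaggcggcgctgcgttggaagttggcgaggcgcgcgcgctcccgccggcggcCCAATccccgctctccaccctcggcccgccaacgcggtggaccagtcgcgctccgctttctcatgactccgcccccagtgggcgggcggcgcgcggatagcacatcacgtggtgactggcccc
Srsf5: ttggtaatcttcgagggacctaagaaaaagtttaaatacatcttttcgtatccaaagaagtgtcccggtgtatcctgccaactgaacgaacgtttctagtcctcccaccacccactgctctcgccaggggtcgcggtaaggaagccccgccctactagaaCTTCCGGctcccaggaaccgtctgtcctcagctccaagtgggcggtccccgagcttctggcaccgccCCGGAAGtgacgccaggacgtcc
Sf3a1: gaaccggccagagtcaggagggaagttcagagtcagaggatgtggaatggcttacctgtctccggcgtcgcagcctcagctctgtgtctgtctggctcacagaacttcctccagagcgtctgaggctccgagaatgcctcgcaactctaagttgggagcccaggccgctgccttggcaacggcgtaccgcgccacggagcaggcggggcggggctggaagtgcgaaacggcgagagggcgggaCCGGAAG
Other motifs were GGGCGG in 72.4% of the members' promoters against 32.7% of all, TATAAA in 10.3% against 12.4%, and TGANTCA in 3.45% against 6.75%. None of these motifs contains another, and each was sought on both strands. Member promoters held a median of 22 CpG dinucleotides against 6 in all promoters. A match describes these letters only, and binding was not measured.

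*Hnrnpa2b1* encodes the A2 and B1 proteins, which bind UAG-containing RNA and act in splicing, mRNA transport and stability. Its probe 1790802 read 0.56, 0.66, 0.52 and 0.82 in the 4 WT mock samples and −1.75, −0.71 and −1.41 in the 3 KO mock samples. All KO mock samples lay below 0 and below every WT mock sample. The difference was −1.88 ± 0.46 (SE, limma, adjusted p = 0.0271), in a comparison in which 1.11% of all probes were called. In ras cells it read 0.90, 0.86, 0.85, 0.62 and 1.38 in WT and −1.70, −0.85 and −1.86 (run 3), 0.03 (run 6) and −0.22 (run 5) in KO, again without overlap. The difference was −1.84 ± 0.38 (adjusted p = 0.00706), where 1.92% of all probes were called. Without run 3 it was −1.11 (adjusted p = 0.307), and with run as a random block it was −1.74 (adjusted p = 0.255) in ras and −1.91 (adjusted p = 0.357) in mock cells. The call in mock cells was lost in 5 of 7 omissions of 1 sample (adjusted p up to 0.142).

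With AG1478 in WT ras cells the same *Hnrnpa2b1* probe read −1.50, −1.76 and −2.15 in the 3 samples of run 7 and 0.75 and 0.04 in the pair of run 8. The samples of run 7 lay far below untreated WT ras, while of the run 8 pair 1 sample lay inside its range and 1 below it. The difference was −1.85 ± 0.38 (adjusted p = 0.00615, 1.94% of all probes called), and without run 7 it was −0.60 (adjusted p = 0.587). With erlotinib the values were −0.30, −1.94 and −1.32 in run 5 and 0.63 and 0.44 in run 6, and the difference was −1.42 ± 0.38 (adjusted p = 0.0253, 3.41% of all probes called). Without run 5 it was −0.46 (adjusted p = 0.813). With PD153035, all in run 8, WT ras cells read 0.28 to 0.67 and the 5 KO ras samples read 0.46, 0.03, 0.47, 0.19 and 0.37. In KO ras cells this was a rise of 1.23 ± 0.38 over the untreated samples, without overlap (adjusted p = 0.0454, 4.84% of all probes called), and without run 3 the difference was 0.49 (adjusted p = 0.679).

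**Figure D3:**
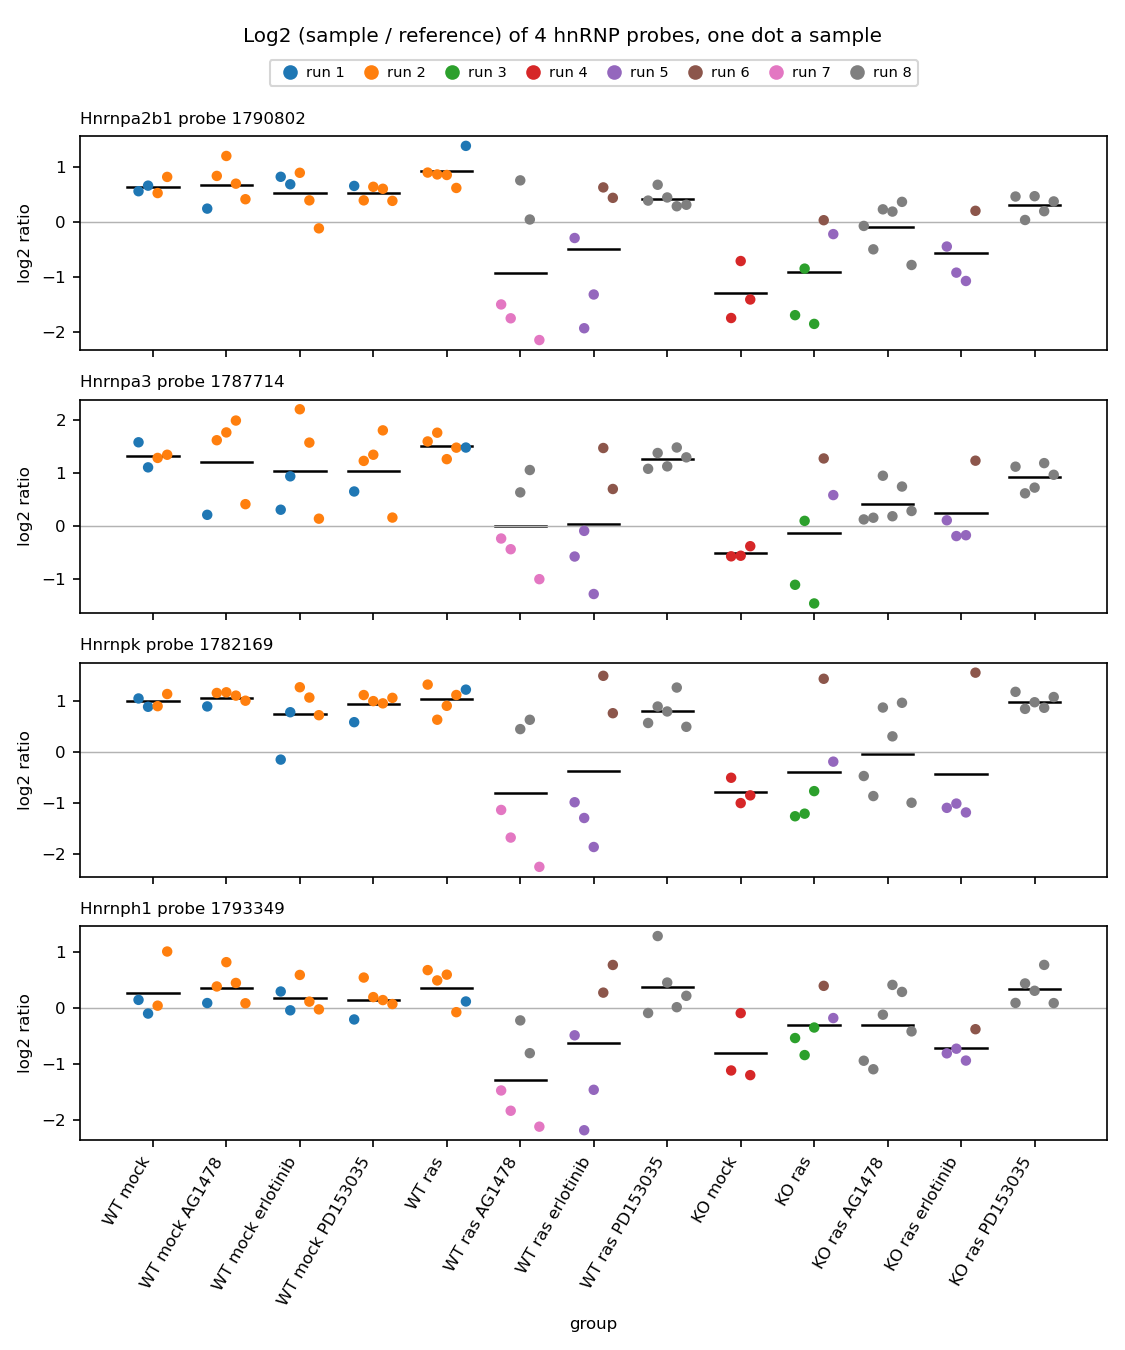
Log2 ratio of sample over reference in each sample (dots, coloured by run; bars, group means) for 4 probes, of *Hnrnpa2b1*, *Hnrnpa3*, *Hnrnpk* and *Hnrnph1*, in the 13 groups. In WT ras with AG1478 the run 7 dots lie below the run 8 dots, and in WT ras with erlotinib the run 5 dots lie below the run 6 dots, for each of the 4 probes.

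The other 3 *Hnrnpa2b1* probes did not follow 1790802 in KO minus WT. Their KO minus WT differences in ras cells were 0.70, −0.04 and 0.40 beside its −1.84, and in mock cells 0.34, −0.18 and 0.21 beside its −1.88. With AG1478 in WT ras cells they gave 0.18, −0.70 and −0.92 (adjusted p = 0.0548 for the last, probe 1795860), all short of the threshold. With PD153035 in KO ras cells they gave −0.88, −0.54 and −0.59, opposite in sign to the rise of 1790802, and none was called. Over samples the correlations between the 4 probes ran from −0.20 to 0.51, and those with 1790802 were −0.20, 0.38 and 0.36. The average of the gene's probes was called lower in WT ras cells with AG1478 and with erlotinib. It gave −0.82 ± 0.23 in both (limma, adjusted p = 0.0454 and 0.0352). Only 1 of the 4 probes of this gene was called in any of these comparisons.

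*Hnrnpa3* encodes a close relative of A1 and A2, and near-identical family members and pseudogenes may share signal on such probes. Probe 1787714 read 1.57, 1.10, 1.28 and 1.34 in WT mock and −0.58, −0.57 and −0.39 in KO mock cells. The groups did not overlap, and the difference was −1.72 ± 0.43 (adjusted p = 0.0345; 0.482 with run as a random block). It was lost in all 7 omissions of 1 sample, with adjusted p from 0.059 to 0.117. In ras cells WT read 1.59, 1.75, 1.25, 1.47 and 1.47, and KO read −1.12, 0.09 and −1.47 in run 3, 1.27 in run 6 and 0.58 in run 5. The KO ras sample of run 6 reached the WT range while those of run 3 lay at or below 0.09, and the difference was −1.64 ± 0.36 (adjusted p = 0.0114). Without run 3 it was −0.83 (adjusted p = 0.42).

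In WT ras cells with AG1478 the *Hnrnpa3* probe read −0.24, −0.45 and −1.01 in run 7 and 0.63 and 1.05 in run 8, all below every untreated sample, a fall of 1.51 ± 0.36 on the log2 scale (adjusted p = 0.0186). With erlotinib it read −0.58, −0.10 and −1.29 in run 5 and 1.46 and 0.69 in run 6, a fall of 1.47 ± 0.36 (adjusted p = 0.0148) with overlap. Without run 7 the first was −0.92 (adjusted p = 0.396), and without run 5 the second was −0.67 (adjusted p = 0.677). The other *Hnrnpa3* probes gave −0.46 and −0.97 in KO minus WT in mock cells, −0.46 and −0.48 in ras cells, and −0.17 and −0.89 with AG1478 in WT ras cells, none of them called. Without run 7 the last, probe 1798041, passed with AG1478 at −1.75 (adjusted p = 0.0399). All 3 probes shared a sign in these 3 comparisons, and their correlations over samples were 0.13 to 0.32.

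*Hnrnpa1*, the founding member of the A/B group and a repressor of exon inclusion, stood above the reference pool in every group, with group means from 1.40 to 2.53 and a mean of 1.82. Its 1 probe was called in no comparison. KO ras with erlotinib read 1.62 to 3.13 and untreated KO ras 1.23 to 1.93, a difference of 0.87 ± 0.35 (adjusted p = 0.306).

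*Hnrnpk* encodes a poly(C)-binding protein with KH domains that acts in transcription, splicing and translation. Probe 1782169 read 1.32, 0.63, 0.90, 1.11 and 1.22 in WT ras cells. With AG1478 it read −1.14, −1.68 and −2.26 in run 7 and 0.45 and 0.63 in run 8. All treated samples lay below all untreated ones, by a small margin in run 8, and the fall was 1.84 ± 0.42 on the log2 scale (adjusted p = 0.0155). With erlotinib it read −0.99, −1.30 and −1.87 in run 5 and 1.49 and 0.76 in run 6. Run 5 lay below the untreated range, and of the run 6 pair 1 sample lay within it and 1 above it, with a fall of 1.42 ± 0.42 (adjusted p = 0.0474). Without run 7 the AG1478 difference was −0.76 (adjusted p = 0.557), and without run 5 the erlotinib difference was −0.12 (adjusted p = 0.97).

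In untreated KO ras cells this *Hnrnpk* probe read −1.26, −1.21 and −0.77 in run 3, 1.43 in run 6 and −0.19 in run 5. With PD153035 the 5 samples, all in run 8, read 1.18, 0.84, 0.97, 0.86 and 1.07. The treated samples were tightly grouped inside the wide untreated range, a rise of 1.39 ± 0.42 (adjusted p = 0.0441) that was 0.64 without run 3 (adjusted p = 0.638). KO mock cells read −0.51, −1.01 and −0.85 against 0.88 to 1.13 in WT mock cells, without overlap, and the difference of −1.66 ± 0.51 did not pass (adjusted p = 0.0816).

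Of the other *Hnrnpk* probes, 1792354 gave −1.95 ± 0.41 with AG1478 in WT ras cells (adjusted p = 0.0086), from 0.40 to 1.00 in untreated cells to −2.06, −1.49 and −2.65 in run 7 and −0.14 and 0.16 in run 8, without overlap. Probe 1795242 gave −1.27 ± 0.34 (adjusted p = 0.0346), from −0.04 to 1.06 to −1.49, −1.19 and −2.03 in run 7 and −0.04 and 0.71 in run 8. Probe 1794562 went the other way, at 0.68, with 0.17, 1.11 and 0.26 in run 7 and 1.94 and 1.94 in run 8 beside −0.14 to 0.99 untreated. The array's annotation assigns 1794562 to another sequence record than the other *Hnrnpk* probes, and the bearing of this was not tested. The first 3 probes followed each other over samples, and the highest correlation was 0.86, while the lowest, 0.28, involved 1794562. Without run 7 the called pair gave −0.86 and −0.24 (adjusted p = 0.475 and 0.856).

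*Hnrnph1* encodes a protein that binds runs of G, and it had the best agreement between probes: its 4 probes correlated at 0.59 to 0.79 over samples. Probe 1793349 read 0.67, 0.49, 0.59, −0.08 and 0.11 in WT ras cells and, with AG1478, −1.48, −1.84 and −2.12 in run 7 and −0.23 and −0.81 in run 8. Every treated sample lay below every untreated one, a fall of 1.65 ± 0.36 on the log2 scale (adjusted p = 0.00965), which was −0.92 without run 7 (adjusted p = 0.38). The other 3 probes gave −0.98, −0.86 and −1.13, not called. With erlotinib it was probe 1784753 that fell, by 1.21 ± 0.34 (adjusted p = 0.0333), from 0.37, 0.53, −0.73, 0.25 and 0.65 to −1.22, −1.67 and −1.72 in run 5 and −0.19 and −0.16 in run 6. Without run 5 it was −0.49 (adjusted p = 0.785), and the other 3 probes gave −0.98, −0.67 and −0.80. In KO minus WT in mock cells the 4 probes lay between −0.91 and −1.25, each at an unadjusted p under 0.05 and none called.

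*Hnrnph2*, a near-identical paralog whose signal on such probes may not be separable from that of *Hnrnph1*, was called in no comparison by either probe. Probe 1790401 had the widest spread of group means of the 46, at 2.40. It read −0.31 to 2.11 in WT ras cells and −0.25 to −1.13 in the 4 samples with a value after AG1478, a difference of −1.60 ± 0.50 (adjusted p = 0.0738). Probe 1786501 stood above the reference pool in every group, with group means from 0.50 to 1.61, and gave −0.93 ± 0.32 in the same comparison (adjusted p = 0.104), and without run 7 it passed at −1.64 (adjusted p = 0.0432). Averaged over its probes, the gene passed with AG1478 in WT ras cells, at −1.29 ± 0.29 (limma, adjusted p = 0.0129).

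*Hnrnpll*, known for directing the alternative splicing of the CD45 transcript in lymphocytes, was the only gene of the set called higher in KO than in WT ras cells without inhibitor. Probe 1790367 read −0.34, −0.84, −0.77, −1.15 and −0.88 in WT ras. In KO ras it read 1.55, 2.03 and 1.92 in run 3, −0.61 in run 6 and −0.31 in run 5. The 3 samples of run 3 lay far above WT and the other 2 inside or next to its range. The difference was 1.71 ± 0.46 (adjusted p = 0.0376), and 0.64 without run 3 (adjusted p = 0.679). Its other probes gave −1.10 (1777875, adjusted p = 0.0747) and 0.20, and the probes correlated at −0.34 to 0.37. Without run 5 probe 1777875 was called lower in KO than in WT ras cells, at −1.175 (limma, adjusted p = 0.0357).

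*Hnrnpul1*, an RNA-binding protein of the U subgroup, was read by 3 probes. Probe 1783696 read −1.60, −3.79 and −0.62 in run 3, −0.23 in run 6 and −1.03 in run 5 in untreated KO ras cells. With PD153035 it read −0.23, −0.19, −0.68, 0.28 and −0.33. The treated samples lay at the top of the untreated range or above it, with some overlap, a rise of 1.23 ± 0.37 (adjusted p = 0.0438) that was 0.61 without run 3 (adjusted p = 0.531). The sample at −3.79, KO ras replicate 2, carried much of this: one-at-a-time omission of the samples gave 0.68 to 1.47. The other probes gave 0.98 and −0.19. Across all groups 1783696 had a mean ratio of −0.67.

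The remaining hnRNP genes had no call. *Hnrnpm*, *Hnrnpr*, *Hnrnpd*, *Hnrnpdl* and *Hnrnpc*, the last a protein that packages nascent transcripts and binds U tracts, gave these examples. *Hnrnpm* read −0.15, 0.03 and −0.03 in KO mock and 0.67 to 0.89 in WT mock cells, without overlap, a difference of −0.77 ± 0.38 (adjusted p = 0.27). *Hnrnpr* probe 1796033 gave −1.25 ± 0.37 with AG1478 in WT ras cells (adjusted p = 0.0576), and its 2 probes correlated at 0.52. *Hnrnpdl* probe 1763804 lay lower with each inhibitor in WT ras cells, at −0.84 with AG1478, −0.68 with erlotinib and −0.67 with PD153035 (adjusted p = 0.12, 0.207 and 0.337). The other *Hnrnpdl* probe, 1797996, did not follow it (correlation 0.07), at −0.146 with AG1478 and 0.195 with PD153035.

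*Srsf5*, which encodes a small SR protein that promotes exon inclusion, was the only SR gene called. It read 0.91, 0.09, 1.66, 0.33 and 0.77 in WT ras cells and, with AG1478, −0.80, −0.73 and −0.86 in run 7 and 0.17 and 0.15 in run 8. Run 7 lay below every untreated sample and run 8 at the bottom of their range, a fall of 1.16 ± 0.31 on the log2 scale (adjusted p = 0.0324). Without run 7 the difference was −0.70 (adjusted p = 0.469). KO mock cells read between −0.85 and −0.20 and WT mock cells between 0.31 and 1.23, without overlap, at −1.09 ± 0.37 (adjusted p = 0.11).

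*Srsf3*, the smallest SR protein and a regulator of splicing and mRNA export, was read by 3 probes. Probe 1776143 read 2.51, 1.79 and 1.76 in run 5 and 1.44 in run 6 in KO ras cells with erlotinib. The WT ras samples with erlotinib read −0.13, 0.31 and 0.61 in run 5 and 0.39 and 0.60 in run 6. These groups share both runs and did not overlap, and the KO minus WT difference was 1.52 ± 0.44, short of the threshold (adjusted p = 0.069, where 0.967% of all probes and 0 members were called). With run as a fixed block it passed, at 1.58 ± 0.32 (adjusted p = 0.0441). The other probes gave 1.02 and 0.85 in the same direction, and averaged over its probes the gene passed at 1.13 ± 0.30 (adjusted p = 0.0392). Under PD153035, all in run 8, probe 1795429 read 1.13, 0.97, 1.73, 1.00 and 1.66 in KO and −0.10, −0.29, 0.36, 0.04 and 0.29 in WT ras cells, without overlap. That difference was 1.23 ± 0.38 (adjusted p = 0.0928; 0.0465 with run as a random block), and the other probes gave −0.53 and −0.02. For the −0.53, of probe 1776143, WT samples ran from −0.23 to 3.46 around a mean of 0.73, and KO samples from −0.60 to 0.53. The 3 probes correlated at −0.08 to 0.40. Probe 1795429 is assigned to another sequence record than the other *Srsf3* probes, and the bearing of this was not tested.

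*Srsf10*, an SR-like protein that represses splicing once dephosphorylated, read 1.05, 0.94 and 0.84 in KO mock and −0.59 to 0.40 in WT mock cells. The groups did not overlap, and the difference of 0.91 ± 0.31 did not pass (adjusted p = 0.105), but did after quantile normalization, at 1.15 ± 0.32 (adjusted p = 0.0311). *Srsf2*, which binds exonic enhancers, gave no call by either probe, and its probes did not follow each other (correlation −0.01). *Srsf11* and *Srsf12* gave no call and no unadjusted p under 0.05 in the comparisons of KO with WT.

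Among the SF3 genes, *Sf3a1*, the SF3A subunit that bridges the U2 particle and the rest of the early spliceosome, was higher in KO than in WT ras cells under PD153035. Probe 1789500 read 1.12, 1.39, 1.41, 1.49 and 0.60 in KO and 0.16, 0.15, 0.53, 0.55 and −0.01 in WT. All KO samples lay above all WT samples, all 10 are in run 8, and the difference was 0.93 ± 0.25 (adjusted p = 0.0434, 1.38% of all probes called). With run as a random block the adjusted p was 0.0221. The call was lost in 9 of 10 omissions of 1 sample, with differences from 0.86 to 1.08 and adjusted p up to 0.13. With erlotinib the same probe gave 0.61 ± 0.27 without overlap (adjusted p = 0.25). The other probe, 1767824, gave 0.33 under PD153035, and the probes did not correlate (0.00065). In ras against mock cells 1767824 gave 0.81 ± 0.33 in WT and 0.77 ± 0.36 in KO cells (adjusted p = 0.628 and 0.654).

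In KO minus WT in ras cells the median difference was 0.35 over the 6 SF3 probes, all above 0, and −0.48 over the 31 hnRNP probes, 24 of them below 0, beside 0.01 over all probes. In mock cells the medians were 0.28 for SF3, −0.67 for hnRNP and −0.10 for SR probes, beside 0.05 for all probes. These signs were the same after quantile normalization, median centring or with run as a random block. SF3 medians in KO minus WT were also above 0 under erlotinib (0.38) and PD153035 (0.42), and −0.15 under AG1478, which became 0.08 with run as a random block. With inhibitors in ras cells most SF3 medians were below 0: −0.20 with erlotinib and −0.29 with PD153035 in WT, and −0.46, −0.23 and −0.33 with AG1478, erlotinib and PD153035 in KO cells, against 0.23 with AG1478 in WT cells. In the same order they were nearer to 0 with run as a random block, at −0.06 and −0.04 in WT and −0.27, −0.13 and −0.15 in KO cells. AG1478 in WT cells then gave 0.27. The difference between families was not tested. *Sf3a2* and *Sf3a3*, which complete the SF3A trimer, had mean ratios of −0.26 and −0.40 over the groups. *Sf3b6*, which contacts the branch point, and *Sf3b5* were not called.

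Counts of the 46 members beside all probes were as follows. In KO minus WT in mock cells 17 of 46 members (37%) had an unadjusted p under 0.05 beside 17.7% of all probes. In the same comparison 20 of 46 members had groups that did not overlap, beside 5579 of 27913 probes (20%). With AG1478 in WT ras cells 45.7% of members had an unadjusted p under 0.05 beside 17% of all probes. The member median was −0.53 against 0.05 for all probes. The share at an unadjusted p under 0.05 was 30.4% beside 18.3% with erlotinib in WT ras cells, with a member median of −0.43. With PD153035 in KO ras cells it was 37% beside 22.2%, at 0.23. In KO minus WT in ras cells it was 30.4% beside 16.8%, at −0.37. By family (31 hnRNP, 9 SR and 6 SF3 probes) the shares with AG1478 in WT ras were 61.3%, 11.1% and 16.7%, with medians of −0.86, −0.19 and 0.23. They were 41.9%, 0% and 16.7% with erlotinib in WT ras, and 35.5%, 22.2% and 16.7% in KO minus WT in ras. In KO minus WT in mock, and also with PD153035 in KO ras, they were 45.2%, 22.2% and 16.7%.

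In the comparisons that follow limma called 0 members. Ras transduction called none in WT cells (0.183% of all probes), none in KO cells (0.539%) and none in the difference of these effects (0.0108%). In each of these 2 members (4.35%) had an unadjusted p under 0.05, beside 6.68%, 6.81% and 5.9% of all probes. *Hnrnpll* 1777875 (0.99 ± 0.36) and *Sf3a1* 1767824 (0.81 ± 0.33) were the pair in WT cells. The 95% interval of a member's ras effect in WT had a median half-width of 0.71, without adjustment for the number of probes. A call needs a larger difference than that: *Hnrnpll* 1777875 at 0.99 had a limma adjusted p of 0.573. Inhibitors in WT mock cells called none (0% of all probes for each), and 2, 0 and 0 members had an unadjusted p under 0.05 for AG1478, erlotinib and PD153035, beside 6.48%, 3.17% and 3.43% of all probes. PD153035 in WT ras called none (0.66% of all probes), with 4.35% of members at an unadjusted p under 0.05 beside 12.2%. AG1478 in KO ras called none (0.229%), with 15.2% beside 14.1%, among them *Hnrnpul1* 1789930 (1.24 ± 0.34, adjusted p = 0.0888). Erlotinib in KO ras called none (0.0543%), with 19.6% beside 11.9%, led by *Srsf3* 1776143 (1.56 ± 0.44, adjusted p = 0.127). KO minus WT with AG1478 called none (2.22%), with 23.9% beside 15.4%. In it 26 of 31 hnRNP probes lay above 0, beside 13199 of 27750 of all probes. The hnRNP median was 0.48, and 0.25 with run as a random block. KO minus WT with erlotinib called none (0.967%), with 19.6% beside 15.6%. Under PD153035, where 1 member was called, it was 6.52% beside 10.4%.

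The 3 inhibitors were given at 1 dose and time to WT ras and KO ras cells, and whether an effect differed with genotype was tested after the other results were known. The AG1478 effect was more positive in KO than in WT ras cells for 4 members (0.791% of all probes called). These were *Hnrnpa2b1* 1790802 (2.68 ± 0.52, adjusted p = 0.013), *Hnrnpa3* 1787714 (2.07 ± 0.50, adjusted p = 0.033), *Hnrnpk* 1782169 (2.24 ± 0.59, adjusted p = 0.0477) and *Srsf5* (1.69 ± 0.42, adjusted p = 0.0387). With run as a random block the adjusted p ran from 0.49 to 0.557, and none passed without run 3 or without run 7. For erlotinib (0.0653% of all probes) and PD153035 (0.0933%) limma called 0 members, with 17.4% and 21.7% at an unadjusted p under 0.05 beside 11.3% and 10.1% of all probes. For AG1478 it was 43.5% beside 16.9%.

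**Figure D4:**
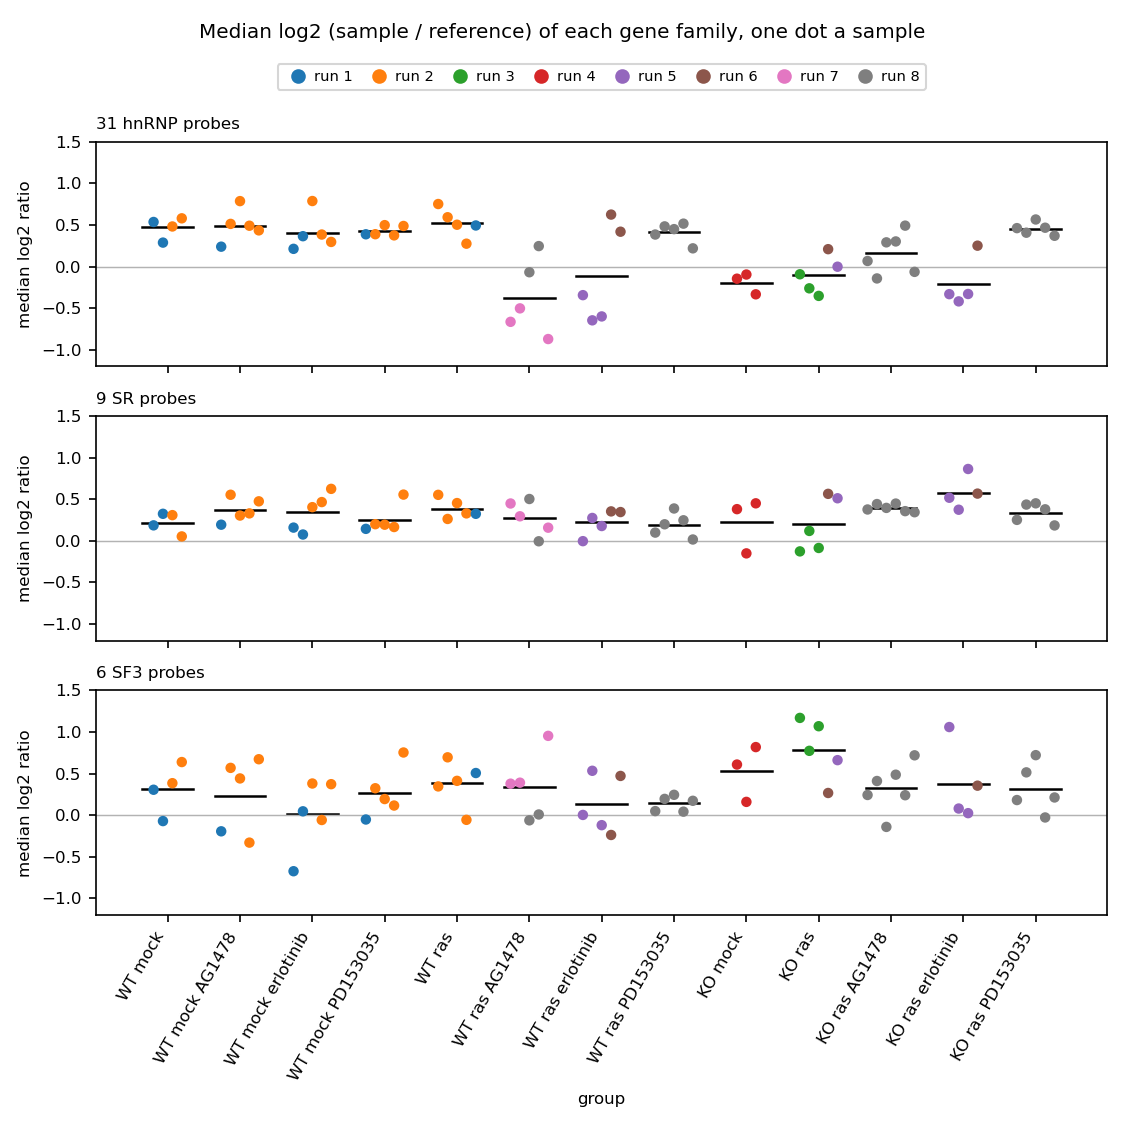
Median log2 ratio over the 31 hnRNP, 9 SR and 6 SF3 probes in each sample (dots, coloured by run), by group. The hnRNP median is below 0 in all 3 KO mock samples and above 0 in all 4 WT mock samples, and within WT ras with AG1478 and with erlotinib it parts by run.

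The members also differed between runs within groups. In a fit of run given group, 21 of 45 members tested (46.7%, of 12 genes) were called beside 29.4% of all probes, led by *Hnrnpk* 1782169 (adjusted p = 6.46e-07) and *Hnrnpa2b1* 1790802 (adjusted p = 1.55e-05). The sample median of the 46 probes in WT ras with erlotinib was −0.53 to −0.18 in run 5 and 0.39 to 0.42 in run 6. In WT ras with AG1478 it was −0.41 to −0.21 in run 7 and 0.08 to 0.12 in run 8. Of 24 called differences, genotype interactions included, 1 was past the threshold with run as a random block, that of *Sf3a1*. The part of run in the other differences cannot be told apart from treatment or genotype where groups share no run.

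Pairs of probes of 1 gene that correlated above 0.5 over samples were all 6 of *Hnrnph1*, 3 of 6 of *Hnrnpk*, the pair of *Hnrnpr* (0.52) and 1 of 6 of *Hnrnpa2b1* (0.51). Within groups, after the group means were taken out, *Hnrnpk* 1794562 correlated with the other 3 probes at 0.54 to 0.60, and the *Hnrnpr* pair at 0.48. For the 12 genes with more than 1 probe the 35 pairs had a median correlation of 0.32 over 56 to 62 samples, from −0.34 to 0.86, and 31.4% exceeded 0.5. All 22567 same-symbol pairs on the array had a median of 0.20, and 14.1% exceeded 0.5. The pairs share samples, runs and reference RNA. The pairs of *Hnrnph2* (0.21), *Hnrnpdl* (0.07), *Sf3a1* and *Srsf2* lay at or below 0.21, and those of *Hnrnpul1* between 0.20 and 0.40.

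**Figure D5:**
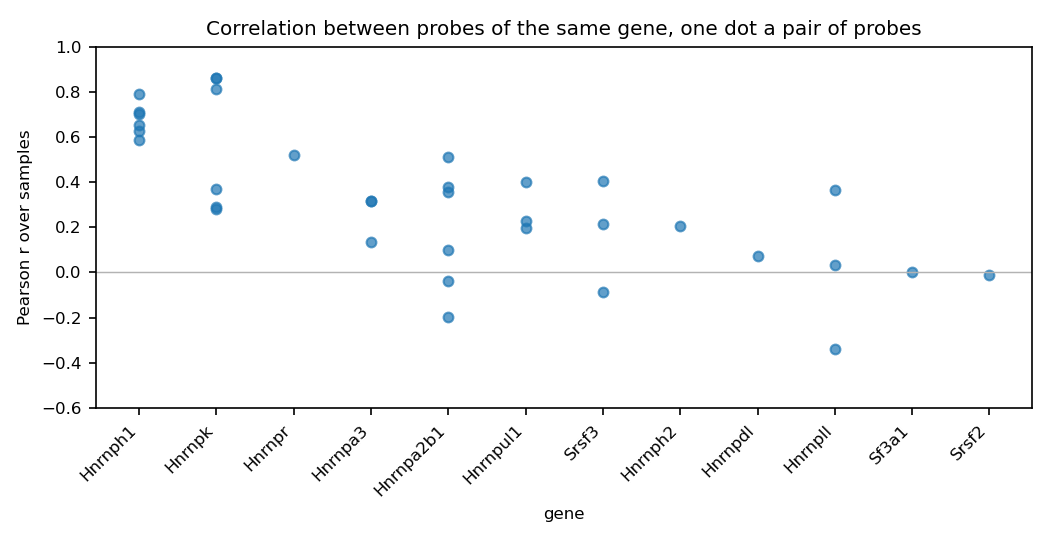
Pearson correlation over samples of each of 35 pairs of probes that carry the same symbol (dots), by gene. All 6 *Hnrnph1* pairs lie above 0.5, the *Hnrnpk* pairs split into a high and a low group, and the pairs of *Hnrnpll*, *Srsf3* and *Hnrnpa2b1* reach below 0.

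Other splicing genes were counted from lists. With run as a random block 3 of their 33 calls below were past the threshold: *Rbm10* in KO minus WT ras cells with AG1478, and *Son* and *Prpf31* with PD153035. The share of all probes called was 1.94% with AG1478 and 3.41% with erlotinib in WT ras and 4.84% with PD153035 in KO ras. None of these inhibitor groups shares a run with its untreated group, so run and inhibitor cannot be told apart. Of 35 probes of other spliceosome genes, 1 was lower with AG1478 in WT ras (*Snrpa1*, −0.98 ± 0.27, adjusted p = 0.0403), and 1 was higher with erlotinib (*Snrpb*). Of 31 other splicing regulators, *Srrm2* (−1.51 ± 0.31, adjusted p = 0.00554), *Tial1*, *Mbnl1* and *Celf1* were lower with AG1478 in WT ras. In that comparison 47 of 60 probes lay below 0, with a median of −0.45, beside 46.6% of all probes and a median of 0.05. With erlotinib *Celf1* (−1.22 ± 0.28, adjusted p = 0.00989), *Khdrbs1* and *Ybx1* were lower. With PD153035 in KO ras cells *Qk* (2.64 ± 0.48, adjusted p = 0.00185), *Syncrip* and *Celf1* were higher. *Esrp1*, an epithelial splicing regulator (−0.98 ± 0.30, adjusted p = 0.0443), and *Mbnl2* were lower there. The SR protein kinases *Clk1* (1.65 ± 0.45, adjusted p = 0.0259) and *Clk4* and the phosphatase *Ppp1cc* were also higher with PD153035. *Smg1*, a kinase of nonsense-mediated decay, fell with AG1478 by 1.90 ± 0.45 and with erlotinib by 1.60 ± 0.45 on the log2 scale (adjusted p = 0.0184 and 0.0343). The other calls were *Mbnl3* and *Ppp1ca* (lower) in KO mock, *Celf1* (lower) and *Clk2* (higher) in KO ras, and *Ppp1ca* (higher) with erlotinib in WT ras. *Snrnp70* and *Sf1* rose with PD153035 in KO ras cells. In KO minus WT ras cells *Phf5a* was lower and *Mbnl1*, *Mbnl2*, *Rbm10* and *Srrm2* higher with AG1478, and *Son* and *Prpf31* higher with PD153035.

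Cell type markers moved with some of these comparisons. The keratinocyte list (18 genes, 23 probes) had group medians from 2.70 to 5.30. Its median difference was 1.18 in KO minus WT in mock cells, where *Krt14* and *Krt15* were called higher and the hnRNP median was −0.67. It was 0.76 in ras cells, 0.30 with AG1478 and −0.53 with erlotinib in WT ras cells, and −0.72 with PD153035 in KO ras cells, where *Pkp3*, *Sfn* and *Trp63* were called lower. The fibroblast list (15 genes, 35 probes) had median differences of 0.55 and 0.60 in KO minus WT in mock and ras cells, and −0.61 with PD153035 in KO ras and −0.56 in KO minus WT under PD153035, where *Vim* was called lower. The melanocyte list (9 genes, 17 probes) had a group median of 1.74 in WT ras cells and of 0.83, 0.49 and 0.58 with AG1478, erlotinib and PD153035, with median differences of −0.19, −0.37 and −0.34. Its median difference in KO minus WT was 0.22 in mock and 0.49 in ras cells, and with PD153035 in KO ras cells it was −0.44. The leukocyte and endothelial lists had medians below 0 in every group. Of the marker calls named here, only *Vim* in KO minus WT under PD153035 passed with run as a random block. Named or not, 10 of the 28 calls on marker and reference pool genes passed with that block, leaving aside the tests of inhibitor effects by genotype. The part of these shifts in the splicing factor values was not tested, and in bulk RNA fewer cells of a type and less RNA per cell cannot be told apart.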

How the data were processed

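Per the labels' protocols, Trizol-extracted keratinocyte RNA and a universal mouse reference RNA carried opposite Cy dyes on 2-colour arrays. The deposited values are 1 log ratio per probe, taken as log2 from their spread, and any correction, scaling or filter by the authors is not stated in the labels or headers. The direction, sample over reference, was set on each array from the sign of its correlation with the forward arrays' median, and it disagreed with the labels on 2 arrays. The 2 arrays labelled WT mock repeat 1 (correlation 0.834, against 0.663 to 0.903 between WT mock pairs) were averaged, giving 62 samples. Of the probes, 20925 had 1 symbol, 159 several and 6965 none, and the series table that pairs them may be old.

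With limma 3.58.1 in R 4.3.3 (and statmod 1.5.0), all 28049 probes were fitted on 13 groups with a term for dye order. Benjamini-Hochberg adjustment ran over the probes of a comparison, and 0.05 was the threshold. Probes needed values on 60 percent or more of each group's arrays to be tested, and differences hold the dye term, so they can depart from differences of means. Figures were drawn in Python 3.11.15 with matplotlib 3.10.9 and pandas 2.3.3. The fit was tested on simulated data. The series design names biological replicates with 1 reversed dye order but nothing ties samples to animals, so p-values reflect the spread among these samples alone, and that spread may be technical.

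The members, gene lists and tests were chosen with earlier results of these data known. The text names each member called in a comparison, the 5 genes with the smallest p in the F test, the 3 largest and 3 smallest mean ratios (1 probe a gene), and genes with several probes. A few further probes were chosen after their values were seen. Alternatives were no dye term, quantile normalization, median centring, other filters, run as a fixed or random block, a replicate block, signs by label, the disputed arrays left out, repeat 1 arrays kept apart, probes averaged by gene, only the groups compared, and omission of each sample. Alternatives chosen after seeing the data were leaving out run 3, 5 or 7, values within 1 run, and the tests of whether an inhibitor's effect differed with genotype.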

Additional observations from a re-analysis of the deposited data

Results flagged for a closer look

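Among 144 sets of values (each of the 11 called probes, and the sample median of the 46 members, in each of the 12 groups of 4 to 6 samples), 7 held a sample far from the others by Dixon's test, and chance alone gives about 1 such set in 20. KO ras with erlotinib repeat 4, the only sample of its group in run 6, read 1.55 on *Hnrnpk* probe 1782169 where the others read −1.19 to −1.01, and 0.91 on probe 1792354 where they read −1.55 to −1.41. On *Hnrnpk* 1792354, WT mock with AG1478 repeat 3 read 1.08 (others 0.38 to 0.51) and WT ras with PD153035 repeat 4 read 0.94 (others 0.19 to 0.37). *Hnrnph1* 1784753 read −0.73 in WT ras repeat 3 (others 0.25 to 0.65). *Hnrnpll* 1790367 read −1.80 in WT ras with erlotinib repeat 5 (others −0.06 to 0.50). *Srsf5* read 1.51 in WT mock with AG1478 repeat 4 (others 0.96 to 1.12).

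The effect of AG1478 differed between KO and WT ras cells for 4 probes, by 2.24 for *Hnrnpk* 1782169, 2.07 for *Hnrnpa3* 1787714, 2.68 for *Hnrnpa2b1* 1790802 and 1.69 for *Srsf5* 1797817 (log2, KO effect minus WT effect, limma). Untreated and treated cells share no run in either genotype, and no adjusted p was below 0.49 with run as a random block.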

How the results depend on the processing

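Counts of called members are given here against 2 in KO minus WT in mock, 3 in ras, 7 with AG1478 and 4 with erlotinib in WT ras, 3 with PD153035 in KO ras, 1 in KO minus WT under PD153035, 4 for the AG1478 effect between genotypes, 19 in the F test and 0 elsewhere. With run as a random block the counts were 0 in the first 5, 0 for the AG1478 effect and in the F test, 2 in KO minus WT under PD153035 and 1 under erlotinib, where run as a fixed block also gave 1. In fits of only the groups compared they were 0 in the first 5 and for the AG1478 effect, and 2 in KO minus WT under PD153035. Without the dye term they were 1 in mock, 4 with AG1478 and 2 with erlotinib in WT ras, 0 with PD153035 in KO ras and 1 for the AG1478 effect. Quantile normalization gave 4 in mock, 2 with AG1478 and 10 with PD153035 in KO ras, and 2 each in KO minus WT under AG1478 and PD153035, and median centring gave 1 under AG1478. Signs by label gave 1 in mock, 2 with AG1478 and 0 with PD153035 in KO ras, 0 in KO minus WT under PD153035 and 2 for the AG1478 effect, which was also 2 without the disputed arrays. Genes averaged over probes gave 1 in mock, 1 in ras, 2 with erlotinib in WT ras, 0 with PD153035 in KO ras, 1 in KO minus WT under erlotinib and 0 under PD153035, 1 for the AG1478 effect and 9 in the F test. Without run 3 the counts were 1 for ras in KO, 0 in ras KO minus WT, 0 with PD153035 in KO ras and 0 for the AG1478 effect. Without run 5 they were 9 in KO minus WT in ras, 0 with erlotinib in WT ras, 2 with AG1478 and 10 with PD153035 in KO ras, 1 in KO minus WT under erlotinib and 10 for the AG1478 effect. Without run 7 they were 2 with AG1478 in WT ras, 1 in KO minus WT under AG1478 and 0 for the AG1478 effect. The causes were not tested. The number of all probes called under each setting is not set beside these counts, so a change cannot be read as particular to the members.

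With 1 sample left out at a time the counts ran from 0 to 1 in mock, 1 to 6 in KO minus WT in ras, 3 to 13 with AG1478 (lowest without repeat 5, highest without repeat 3 of the treated cells) and 0 to 6 with erlotinib in WT ras. They ran from 0 to 2 with AG1478, 0 to 1 with erlotinib and 0 to 7 with PD153035 in KO ras, from 0 to 5 under AG1478, 0 to 1 under erlotinib and 0 to 1 under PD153035 in KO minus WT, and from 1 to 11 for the AG1478 effect. The number of all probes called moved too. With AG1478 in WT ras it was 264 of 27348 without repeat 5 and 961 of 27561 without repeat 3, beside 539 of 27714 with every sample. With erlotinib in WT ras it was 243 of 27569 where 0 members were called and 1523 of 27858 where 6 were, beside 950 of 27873. Of the called differences, *Hnrnpa2b1* 1790802 in ras KO minus WT, in WT ras with AG1478 and in the AG1478 effect, and *Hnrnpk* 1792354 and *Hnrnph1* 1793349 with AG1478 in WT ras, passed in every such omission (highest adjusted p 0.0445). The calls of *Hnrnpa3* in mock were lost in 7 of 7 omissions and of *Hnrnpa2b1* in 5 of 7. Over all 24 called differences and 577 alternatives, 357 kept the call, 220 kept the direction alone and 0 reversed. Replicate numbers did not pair the samples (same-numbered samples correlated from −0.66 to 0.53), and a replicate block gave 2 in mock, 3 in ras, 7 and 4 in WT ras, 2 with PD153035 in KO ras, 17 in the F test and 0 in KO minus WT under PD153035.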
